A study of Mus musculus with 20 samples.

Results

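The cyclin-dependent kinase inhibitor family was taken as its 7 genes, the Cip/Kip genes Cdkn1a, Cdkn1b and Cdkn1c and the Ink4 genes Cdkn2a, Cdkn2b, Cdkn2c and Cdkn2d. Members were picked by gene symbol, and all 7 were found among the 55486 genes listed for both tissues. In bone marrow 6 of the 7 changed after oxaliplatin, in both directions, where 23.3% of all tested genes did, and in kidney 1 of the 6 that could be tested changed, where 11.5% of genes did.

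RNA was sequenced from bone marrow and from kidney of C57BL/6 mice, 10 weeks old at the start, that were injected intraperitoneally over 8 weeks with vehicle (5% dextrose) or with 10 mg/kg of oxaliplatin, a platinum drug used against cancer whose adducts crosslink DNA. Each tissue gave 5 vehicle and 5 oxaliplatin libraries, 20 in all, each labelled as a biological replicate. The marrow, from femur and tibia, was collected 6 days following the final dose. Kidney RNA was purified on a column and marrow RNA with Trizol before the column, so tissue and extraction method cannot be told apart.

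The inhibitors restrain the kinases that drive cells from one phase of the cell cycle to the next. Cip/Kip proteins bind complexes of cyclins with their kinases, whereas Ink4 proteins bind the kinases Cdk4 and Cdk6 and keep them from D-type cyclins, which leaves retinoblastoma proteins free to hold back the genes of DNA synthesis. Cdkn1a, which encodes the protein p21, is a transcriptional target of p53 and is known for its induction by DNA damage. In marrow the family is known for keeping stem cells quiescent and for taking maturing blood cells out of the cycle.

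Total counts ran from 30660153 to 41140527 in marrow and from 24393007 to 30925430 in kidney. Levels are given as CPM, counts relative to a library size that was scaled within the tissue by TMM, and a gene was called at an adjusted p under 0.05 with a change beyond 1.5-fold, by edgeR's two-sided quasi-likelihood test. All 20 libraries expressed Y-linked genes, and Xist reached at most 2.88 CPM, although the methods name mice of both sexes. One marrow library, oxaliplatin replicate 5, stood apart with 26.7 CPM of the Y-linked gene Ddx3y where the other treated marrow libraries had up to 57.6 CPM. Treated marrow differed in its cell markers: all 8 erythroid and 6 of 8 B cell markers fell, and all 5 adipocyte and 4 of 5 skeletal muscle markers rose. Of megakaryocyte markers 5 of 6 rose, of stem and progenitor 3 of 7, of endothelial 2 of 6 and of stroma and bone 1 of 7. Among 9 monocyte and macrophage markers 3 rose and 1 fell, and none of 10 neutrophil or 6 T and NK cell markers was called. Of all tested genes 11.6% rose and 11.8% fell. The summed erythroid markers went from between 23600 and 41300 CPM with vehicle to between 3100 and 7650 CPM with oxaliplatin. Fewer cells of a type and less RNA per cell cannot be told apart in such bulk samples.

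Positions refer to the GRCm38 genome. Cdkn1a is on chr17:29090976-29100727, Cdkn1b on chr6:134920401-134925513, Cdkn1c on chr7:143458339-143461050 and Cdkn2d on chr9:21288410-21291407. Chromosome 4 holds the others, with Cdkn2a at chr4:89274471-89294653, Cdkn2b next to it at chr4:89306299-89311039 across a gap of 11646 bases, and Cdkn2c far away at chr4:109660876-109667189. Promoter windows from 250 bases before to 50 after a transcript start were matched in RefSeq (GRCm38.p6) for 6 of the 7 members. Printed 5′ to 3′ on the gene's strand are those of Cdkn1a, the member that rose in both tissues, of the neighbours Cdkn2a and Cdkn2b, which rose in marrow, and, for its upstream start alone, of Cdkn2c, which fell there. Capitals mark every match to a searched motif.
Cdkn1a, upstream start, chr17:29090729-29091028, plus strand: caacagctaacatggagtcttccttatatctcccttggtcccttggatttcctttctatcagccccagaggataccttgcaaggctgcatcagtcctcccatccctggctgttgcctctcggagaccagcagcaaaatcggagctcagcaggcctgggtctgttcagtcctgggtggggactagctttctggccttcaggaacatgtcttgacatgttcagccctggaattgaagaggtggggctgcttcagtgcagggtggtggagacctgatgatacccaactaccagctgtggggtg
Cdkn1a, downstream start, chr17:29093519-29093818, plus strand: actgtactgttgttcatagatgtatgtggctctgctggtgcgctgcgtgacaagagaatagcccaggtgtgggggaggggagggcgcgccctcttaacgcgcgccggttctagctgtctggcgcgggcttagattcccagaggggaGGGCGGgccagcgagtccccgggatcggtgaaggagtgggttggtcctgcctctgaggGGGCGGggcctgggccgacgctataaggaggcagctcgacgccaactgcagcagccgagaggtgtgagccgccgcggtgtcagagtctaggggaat
Cdkn2a, upstream start, chr4:89294570-89294869, minus strand: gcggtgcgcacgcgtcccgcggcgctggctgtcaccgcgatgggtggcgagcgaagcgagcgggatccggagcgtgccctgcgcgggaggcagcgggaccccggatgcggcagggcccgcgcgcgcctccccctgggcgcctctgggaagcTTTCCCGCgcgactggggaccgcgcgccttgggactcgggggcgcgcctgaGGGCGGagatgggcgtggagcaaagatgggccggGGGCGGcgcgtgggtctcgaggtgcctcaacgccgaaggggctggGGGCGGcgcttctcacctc
Cdkn2a, downstream start, chr4:89282143-89282442, minus strand: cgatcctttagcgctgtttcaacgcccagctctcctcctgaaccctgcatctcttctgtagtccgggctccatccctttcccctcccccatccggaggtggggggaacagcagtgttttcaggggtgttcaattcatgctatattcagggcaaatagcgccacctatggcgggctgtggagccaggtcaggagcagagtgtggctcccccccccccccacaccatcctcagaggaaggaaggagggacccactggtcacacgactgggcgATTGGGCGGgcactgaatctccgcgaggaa
Cdkn2b, chr4:89310983-89311282, minus strand: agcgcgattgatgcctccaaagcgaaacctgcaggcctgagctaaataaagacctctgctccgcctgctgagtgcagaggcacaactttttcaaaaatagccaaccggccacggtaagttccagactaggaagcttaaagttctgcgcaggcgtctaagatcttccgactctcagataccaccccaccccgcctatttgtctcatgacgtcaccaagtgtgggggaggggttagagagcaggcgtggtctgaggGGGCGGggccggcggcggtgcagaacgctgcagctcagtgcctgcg
Cdkn2c, upstream start, chr4:109666707-109667006, minus strand: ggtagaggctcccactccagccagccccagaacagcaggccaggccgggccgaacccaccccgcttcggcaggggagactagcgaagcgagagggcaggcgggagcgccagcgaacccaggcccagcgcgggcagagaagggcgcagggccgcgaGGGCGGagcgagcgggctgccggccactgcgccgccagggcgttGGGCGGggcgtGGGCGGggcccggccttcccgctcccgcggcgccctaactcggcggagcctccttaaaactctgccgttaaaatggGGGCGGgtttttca

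The motifs searched on both strands were the GC box GGGCGG, the CCAAT box CCAAT, the TATA box TATAAA, the E box CACGTG, an E2F site (TTTCCCGC or TTTGGCGC) and the full p53 consensus, matched exactly and without a spacer. A GC box is held by 35.7% of the 32851 promoter windows, a CCAAT box by 37.4%, a TATA box by 13.6%, an E box by 7.15%, the E2F site by 1.56% and the p53 consensus by 0.00913%. The upstream Cdkn2a window has 3 GC boxes and the E2F site. Its downstream window has 1 GC box that overlaps a CCAAT box, Cdkn2b has 1 GC box. The upstream Cdkn2c window has 4, and its downstream window, at chr4:109665323-109665622 and not printed, has 1 CCAAT box, 1 E box and no GC box. The upstream Cdkn1a window holds no exact match to these motifs and the downstream one has 2 GC boxes. The exact p53 consensus is in no member's window, which says only that these letters are not there. So rare a motif would be missing from nearly any window, and near matches were not searched for. The upstream Cdkn1a window does hold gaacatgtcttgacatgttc, which departs from that consensus at 1 letter. The upstream Cdkn2a window also had 45 CpG dinucleotides against a median of 7 over all windows, and the upstream Cdkn1a window had 2.

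Cdkn1a had the largest rise of the family in both tissues. In marrow the vehicle libraries had 6.08, 6.66, 6.49, 6.41 and 7.18 CPM, and the oxaliplatin libraries had 150, 146, 153 (replicate 3), 151 and 79.2 CPM. The groups were far apart, and replicate 5 was the low library of the treated group. The mean went from 6.56 ± 0.405 to 136 ± 31.8 CPM (SD, n = 5 each), a log2 fold change of 4.37 ± 0.18 (SE) or 20.7-fold, with an adjusted p of 1.3e-08 in edgeR. Ranked by log2 fold change it was gene 75 of the 22363 tested in marrow. Without replicate 5 the log2 fold change was 4.56.

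In kidney Cdkn1a rose from a vehicle level with a lower mean than in marrow. Once all libraries were scaled together, the tissues overlapped both with vehicle (1.97 to 5.46 CPM in kidney, 5.23 to 6.25 CPM in marrow) and after treatment. The vehicle libraries had 2.39, 1.71, 3.37, 2.94 and 4.78 CPM, and the oxaliplatin libraries had 149, 108, 92.6, 79.3 and 147 CPM. No treated kidney overlapped a vehicle kidney. The log2 fold change was 5.25 ± 0.31 (38.1-fold), with an adjusted p of 7.2e-06 in edgeR, and the gene ranked 6 of the 19293 tested by log2 fold change. The kidney change exceeded the marrow change by 0.82 on the log2 scale (95% interval 0.157 to 1.48), and this difference missed the threshold at an adjusted p of 0.0564 in edgeR's interaction test. It passed in DESeq2, at an adjusted p of 0.036.

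**Figure D1:**
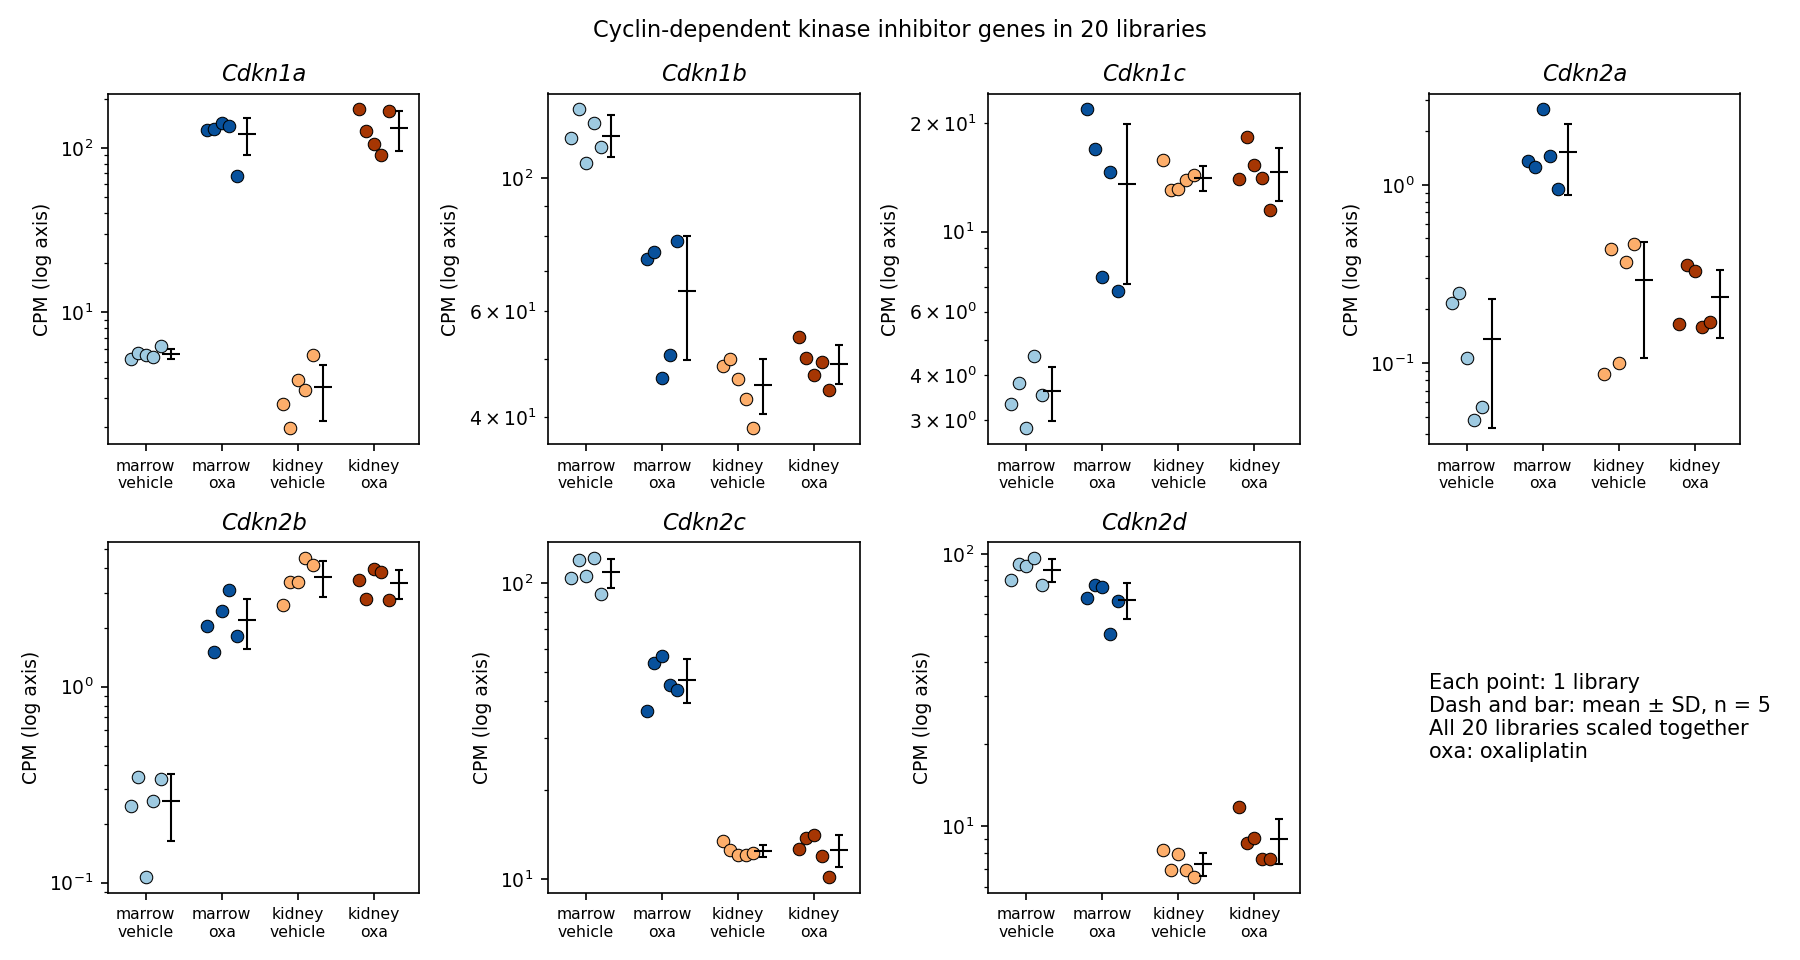
CPM on a log axis for each member in all 20 libraries, scaled together over both tissues, with the mean ± SD (n = 5) beside each group. Cdkn1a lies between 67.9 and 172 CPM in all 10 treated libraries and at most at 6.25 CPM in the vehicle libraries, whereas Cdkn1b, Cdkn1c, Cdkn2a, Cdkn2b and Cdkn2c separate the treatments in marrow and overlap between the kidney groups, and Cdkn2d overlaps in both.

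Genes beside Cdkn1a were read as well. Trp53cor1, which makes the p53-induced long noncoding RNA lincRNA-p21, lies 11797 bases away on the opposite strand. It had 0 to 2 counts per vehicle kidney and 29 to 74 per treated kidney, and in marrow its level went from 0.459 ± 0.0763 to 2.03 ± 0.678 CPM (SD, n = 5). In edgeR its marrow log2 fold change was 2.14 (adjusted p = 9.16e-05), and it also rose in kidney (adjusted p = 1.64e-06). AC167363.2 overlaps Cdkn1a exons by 273 bases on the opposite strand. It had at most 219 counts in any library, against 2260 or more counts of Cdkn1a in each treated library. The vehicle counts were closer, at 41 to 79 against 45 to 118 of Cdkn1a in kidney and 29 to 43 against 192 to 229 in marrow. Use of strand in counting is not stated, and the part of this overlap in the vehicle level of Cdkn1a was not tested.

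Cdkn1b, which encodes p27 and holds cells out of the cycle, fell in marrow. Its vehicle libraries had 135, 153 (replicate 2), 124, 148 and 129 CPM, and its oxaliplatin libraries had 85.8, 84.8, 49.9, 56 and 91.8 CPM. Every treated library was below every vehicle library, and replicates 3 and 4 were the lowest. The log2 fold change was −0.91 ± 0.16 (1.87-fold lower), with an adjusted p of 0.000753 in edgeR. Tested against a change of 1.5-fold, rather than against none, it no longer passed (adjusted p = 0.0669). In kidney it had 39.3 ± 3.99 CPM with vehicle and 42.8 ± 3.05 CPM with oxaliplatin, with overlapping groups. The kidney log2 fold change was 0.12 (95% interval −0.0462 to 0.287, adjusted p = 0.268 in edgeR). The changes in the 2 tissues differed by 0.98 on the log2 scale (adjusted p = 0.000191, edgeR interaction test).

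Lockd, a long noncoding RNA that starts 3579 bases downstream of Cdkn1b on the same strand, went from 34.7 ± 4.98 to 12 ± 0.846 CPM (SD, n = 5) in marrow. That was a log2 fold change of −1.53 (adjusted p = 1.01e-06 in edgeR). Of the 7 genes listed for p27 turnover and nuclear export, 1 fell in marrow and none changed in kidney. The one was Rnf123, part of a ubiquitin ligase that acts on p27, at a log2 fold change of −1.78 ± 0.12. Over all tested genes, 11.8% fell in marrow, and 7.68% rose and 3.81% fell in kidney. Among 3 FoxO genes tested in marrow, whose products activate Cdkn1b, Foxo3 and Foxo4 fell, by 1.28 and 1.32 on the log2 scale. In kidney 1 of 4 FoxO genes was called, Foxo3, which rose by 0.59 ± 0.15.

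Cdkn1c encodes p57, an inhibitor expressed from the maternal allele and known in quiescent blood stem cells and in podocytes. In marrow it rose from 3.86, 4.45, 3.34, 5.41 and 4.03 CPM with vehicle to 25.6, 19.1, 8.04, 16.2 and 7.98 CPM with oxaliplatin. The treated libraries spread widely, at a coefficient of variation of 49.1% against 18.4% with vehicle, and the lowest of them still lay above every vehicle library. The log2 fold change was 1.86 ± 0.31 (3.64-fold, adjusted p = 0.000494 in edgeR). In kidney Cdkn1c had 12.2 ± 0.917 CPM with vehicle and 12.8 ± 1.99 CPM with oxaliplatin. The log2 difference there was 0.06 (95% interval −0.175 to 0.294, adjusted p = 0.722 in edgeR). In the same kidneys 4 of 5 podocyte markers rose and none fell, where 7.68% of all tested genes rose and 3.81% fell. Their part in the kidney level of Cdkn1c was not tested. Kidney and marrow differed in their change by −1.85 on the log2 scale (adjusted p = 0.000197, edgeR interaction test).

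In the imprinted domain around Cdkn1c, 4 of 9 tested genes rose in marrow and none fell, and in kidney 1 of 8 rose and 1 fell. The shares of all tested genes were 11.6% higher and 11.8% lower in marrow, and 7.68% higher and 3.81% lower in kidney. Slc22a18, the transporter gene 12686 bases from Cdkn1c, went from 0.884 ± 0.249 to 2.89 ± 0.888 CPM (SD, n = 5) in marrow. Kcnq1ot1, the noncoding RNA that silences the domain on the paternal allele, had a marrow log2 fold change of −0.41 (adjusted p = 0.206 in edgeR). In kidney Kcnq1ot1 was the gene that rose, at 0.59 (adjusted p = 0.0254), and Phlda2 the one that fell, at −0.62 (adjusted p = 0.0171, both in edgeR). The change of Kcnq1ot1 in kidney exceeded that in marrow by 0.95 on the log2 scale (adjusted p = 0.0181, edgeR interaction test). Of 9 other imprinted growth genes tested in marrow, 7 rose and none fell, among them Plagl1 at 3.09 ± 0.18 and Igf2 at 2.6 ± 0.41 on the log2 scale. Skeletal muscle markers summed to between 9.51 and 93 CPM in vehicle marrow and to between 39.5 and 701 CPM in treated marrow. Their part in these results was not tested.

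Cdkn2a and Cdkn2b, neighbours on chromosome 4, were close to absent in vehicle marrow and rose there. Cdkn2a encodes both the inhibitor p16Ink4a and, from the upstream start and another reading frame, p19Arf, which stabilises p53. The gene counts cannot separate the transcripts. Cdkn2a had 8, 10, 4, 2 and 2 counts in the vehicle marrow libraries and 55, 45, 122, 72 and 41 counts in the oxaliplatin libraries. Those treated counts are 1.58, 1.41, 2.84, 1.6 and 1.11 CPM, with replicate 3 the high one, against at most 0.291 CPM with vehicle. A level of 3 counts, taken as the floor, is 0.0668 to 0.0975 CPM in marrow, so the 2 lowest vehicle libraries lay under it. Summed over libraries and relative to their total counts, treated marrow had 12.2 times the vehicle reads (exact 95% interval 8.2 to 19, counting error only). The fitted log2 fold change was 3.4 ± 0.45, with an adjusted p of 8.06e-05 in edgeR.

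In kidney Cdkn2a stayed too low to be tested, with 2 to 10 counts per vehicle library and 4 to 9 per treated library. The sums were 32 and 30 counts, a ratio of 0.878 relative to total counts (exact 95% interval 0.515 to 1.49). A change within that interval was not detectable at this depth. In the fit over all 20 libraries, where the gene could be tested, the kidney change was below the marrow change by 3.77 on the log2 scale (adjusted p = 0.000346, edgeR interaction test).

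Cdkn2b encodes p15Ink4b, an inhibitor induced by TGF-beta. It had 9, 14, 4, 11 and 12 counts in vehicle marrow and 83, 54, 112, 154 and 78 counts in treated marrow. In CPM the treated libraries ran from 1.69 to 3.43 and the vehicle libraries from 0.126 to 0.407, with no overlap. The log2 fold change was 2.99 ± 0.32 (7.95-fold, adjusted p = 1.57e-05 in edgeR). Kidney started higher, at 3.16 ± 0.664 CPM with vehicle, and had 2.94 ± 0.505 CPM with oxaliplatin. The kidney log2 fold change was −0.10 (95% interval −0.496 to 0.287, adjusted p = 0.708 in edgeR), and it lay 3.15 below the marrow change (adjusted p = 1.05e-06, edgeR interaction test).

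The surrounding genes and known regulators of the locus were also read. Mtap, a methionine salvage gene of the same region, rose in marrow by 1.28 ± 0.19 on the log2 scale (adjusted p = 0.000188 in edgeR), the 1 called of 4 tested genes on a list of genes flanking the Ink4 genes. Of 16 Polycomb genes and other repressors of the locus, 2 rose and 2 fell in marrow, and 1 rose and none fell in kidney. These counts are near the shares over all tested genes. Those were 11.6% higher and 11.8% lower in marrow, and 7.68% higher and 3.81% lower in kidney. Ezh2, the Polycomb methyltransferase, fell in marrow by 0.96 on the log2 scale, and Bmi1, a Polycomb subunit known for repressing Cdkn2a, rose by 0.67 (±0.13). Of 12 genes of the Myc, Miz1 and TGF-beta inputs, 5 rose and none fell in marrow. Among them were Mycn at 1.94 ± 0.22, Tgfb2 at 1.94 ± 0.44, Tgfb3 at 1.3 ± 0.27 and Tgfb1 at 0.68 ± 0.11 on the log2 scale. In kidney 2 of the 12 rose and none fell, Tgfb2 at 1.23 ± 0.28 and Tgfb3 at 0.68 ± 0.22. The summed adipocyte markers went from between 154 and 243 CPM in vehicle marrow to between 888 and 3290 CPM in treated marrow, and their part in the rise of Cdkn2a and Cdkn2b was not tested.

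Cdkn2c, which encodes p18Ink4c and restrains stem and lymphoid cells, fell in marrow. Its vehicle libraries had 121, 141, 124, 146 and 106 CPM, and its oxaliplatin libraries had 43.5, 60.4, 61.2, 50 and 50.7 CPM. The highest treated library was well below the lowest vehicle library. The log2 fold change was −1.26 ± 0.12 (2.4-fold lower, adjusted p = 5.19e-06 in edgeR). In kidney the levels were 10.9 ± 0.432 CPM with vehicle and 11 ± 1.3 CPM with oxaliplatin, a log2 difference of 0.01 (95% interval −0.205 to 0.226, adjusted p = 0.952 in edgeR). The difference between tissues was 1.21 on the log2 scale (adjusted p = 5.77e-06, edgeR interaction test). The noncoding 9630013D21Rik, 3023 bases from Cdkn2c on the same strand, fell in marrow by 1.83 and in kidney by 0.90 on the log2 scale (adjusted p = 0.00014 and 0.00626 in edgeR).

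Cdkn2d encodes p19Ink4d, an inhibitor known in maturing blood cells. In marrow it had 93, 108, 106, 116 and 88 CPM with vehicle and 80.9, 86.6, 81.4, 56.2 and 78.7 CPM with oxaliplatin. The groups came close without overlap, overlapped slightly when all 20 libraries were scaled together (76.9 CPM in the highest treated and 76.6 CPM in the lowest vehicle library), and replicate 4 was the low treated library. Its log2 fold change of −0.41 ± 0.12 had an adjusted p of 0.0181 in edgeR and stayed below 1.5-fold, so it was not called. In kidney it had 6.34 ± 0.587 CPM with vehicle and 7.8 ± 1.46 CPM with oxaliplatin, a log2 fold change of 0.30 (95% interval 0.0137 to 0.582, adjusted p = 0.106 in edgeR). The 2 tissues differed in this change by 0.65 on the log2 scale (adjusted p = 0.00685, edgeR interaction test). Atg4d, an autophagy gene 10638 bases from Cdkn2d, fell in marrow by 0.93 on the log2 scale (adjusted p = 3.59e-06 in edgeR), and Kri1, 441 bases from Cdkn2d, had a log2 fold change of 0.04 (adjusted p = 0.833). The erythroid and B cell markers that fell in the same marrow libraries had median log2 fold changes of −2.75 and −2.23, and their part in the falls of Cdkn2c and Cdkn2d was not tested.

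**Figure D2:**
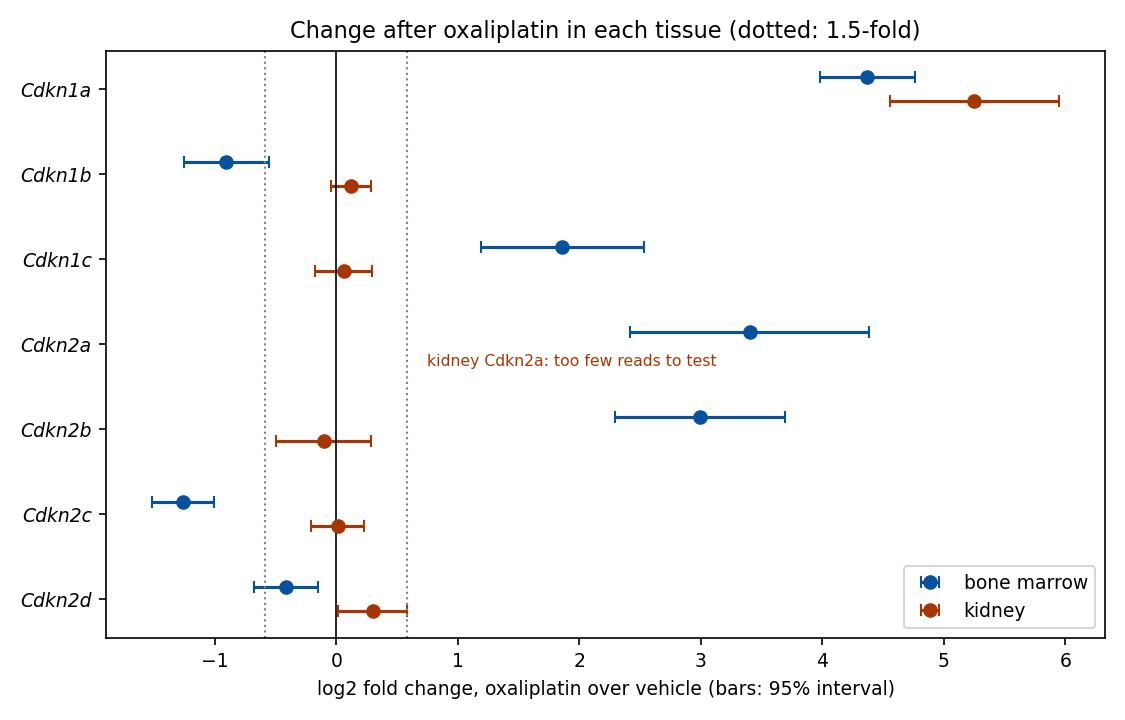
Log2 fold change of each member, oxaliplatin over vehicle, in marrow and in kidney, with 95% intervals from edgeR and dotted lines at 1.5-fold. Cdkn1a lies far to the right in both tissues, and the other kidney values run from −0.10 to 0.30. Cdkn2a has no kidney point because it had too few reads to test.

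Over the family, 6 of 7 members were called in marrow, 4 higher and 2 lower, where 23.3% of all tested genes were called (11.6% higher and 11.8% lower). All 7 passed the adjusted p alone (33.1% of genes), and the groups did not overlap for all 7, against 24.9% of genes. In kidney 1 of 6 tested members was called, where 11.5% of all genes were (7.68% higher and 3.81% lower) and 29.4% passed the adjusted p alone, and Cdkn1a was also the single member whose groups did not overlap, against 20.7% of genes. The interaction test called 6 of 7, against 30.1% of genes, 3 of them with the higher change in kidney (13.1%) and 3 with the higher change in marrow (17.0%). The median member log2 fold change was 1.86 in marrow and 0.09 in kidney, against −0.04 and 0.02 over all tested genes. The marrow median is the value of Cdkn1c, the smallest of the 4 rises, and does not describe the members that fell.

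The tissues differed before treatment as well. In vehicle mice 6 of 7 members were called between kidney and marrow, against 72.9% of all genes (80.7% by the adjusted p alone), with Cdkn1c and Cdkn2b higher in kidney (34.6% of genes) and Cdkn1a, Cdkn1b, Cdkn2c and Cdkn2d higher in marrow (38.3%). In edgeR the log2 differences, kidney minus marrow, ranged from 3.78 for Cdkn2b to −3.58 for Cdkn2d. Cdkn2a, at a log2 difference of 1.08, missed the threshold (adjusted p = 0.0666). Ordered over the 4 groups with all libraries scaled together, Cdkn1c (6.84 to 21.9 CPM), Cdkn1b (46.4 to 78.7 CPM) and Cdkn2b (1.5 to 3.1 CPM) in treated marrow each overlapped both kidney groups. Treated marrow and treated kidney also overlapped for Cdkn1a. Cdkn2c and Cdkn2d in treated marrow remained above every kidney library.

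Per kilobase of exon, the make-up of the family changed in both tissues. In vehicle marrow Cdkn2d made up 44.2% of the summed CPM per kb, Cdkn2c 32.2%, Cdkn1b 20.7% and Cdkn1a 1.27%. In treated marrow Cdkn2d made up 36.5%, Cdkn1a 28.5%, Cdkn2c 14.9% and Cdkn1b 12.2%. The summed level was 125 ± 11.2 and 119 ± 13.1 CPM per kb (SD, n = 5), with overlapping ranges. In vehicle kidney Cdkn1b led with 33.1%, followed by Cdkn1c with 23% and then Cdkn2c and Cdkn2d, whose ranges overlapped. In treated kidney Cdkn1a made up 53.9% and Cdkn1b 16%, and the summed level went from 30 ± 0.839 to 68.2 ± 10.3 CPM per kb (SD, n = 5) without overlap.

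**Figure D3:**
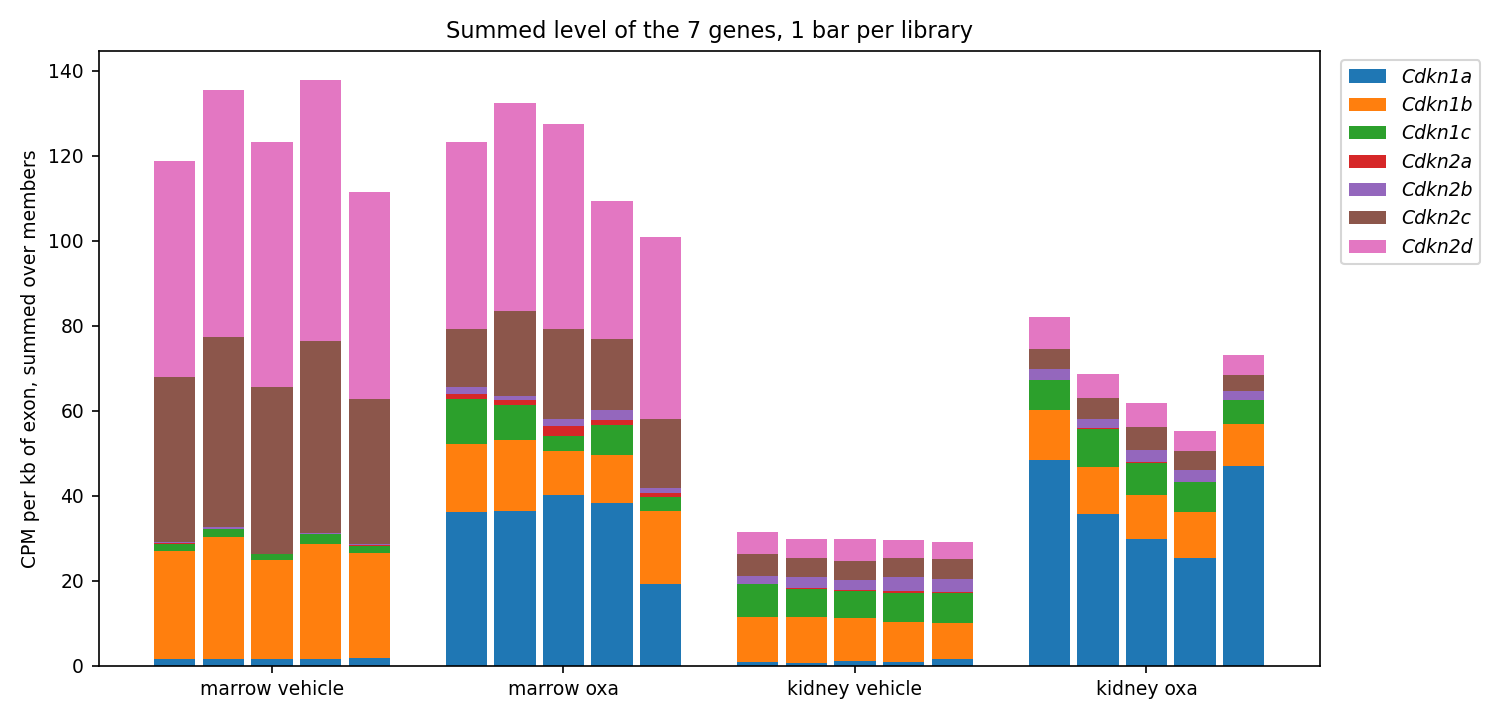
CPM per kb of exon summed over the members, 1 bar for each of the 20 libraries, with all libraries scaled together and 1 colour per member. The marrow bars keep a similar height while the Cdkn1a share widens from 1.27% to 28.5%, and the kidney bars rise from about 30 to 68.2 on average with Cdkn1a.

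The partners of the inhibitors were read from lists of known roles. Beside these lists, 11.6% of all tested genes rose and 11.8% fell in marrow, and 7.68% rose and 3.81% fell in kidney. Of 23 p53 targets other than Cdkn1a, 11 rose and 1 fell in marrow, and 12 rose and none fell in kidney. Eda2r rose by 4.99 ± 0.42 in marrow and 4.98 ± 0.23 in kidney on the log2 scale, and Phlda3, an inhibitor of Akt, rose by 3.99 ± 0.28 and 3.03 ± 0.16. The list median was 0.48 in marrow and 0.66 in kidney. Of 22 S phase and mitosis genes tested in marrow, 18 fell and none rose, and of 21 tested in kidney, 9 rose and none fell. Mki67, a marker of cycling cells, had log2 fold changes of −1.53 ± 0.13 in marrow and 1.63 ± 0.21 in kidney. The interaction test called 21 of the 22, all with the higher change in kidney, where it called 30.1% of all tested genes and 13.1% in that direction. The kidney levels were low: the list summed to between 129 and 150 CPM with vehicle and between 170 and 200 CPM with oxaliplatin. In marrow it summed to between 7440 and 9520 CPM with vehicle and between 3070 and 5920 CPM with oxaliplatin.

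**Figure D4:**
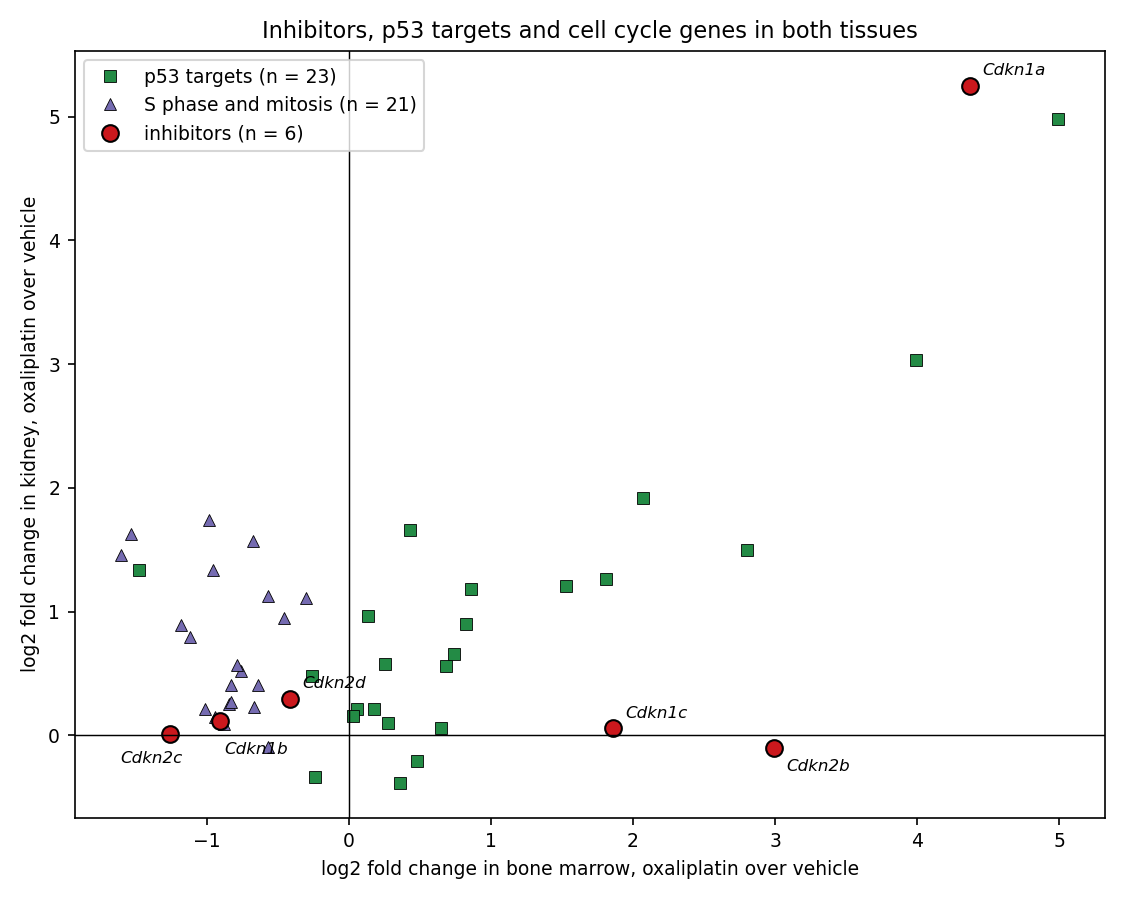
Log2 fold change, oxaliplatin over vehicle, in marrow (x axis) and kidney (y axis) for the 6 inhibitors tested in both tissues, 23 p53 targets and 21 S phase and mitosis genes. Cdkn1a lies at the upper right beside Eda2r, the other inhibitors lie between −0.10 and 0.30 in kidney, and the S phase and mitosis genes lie to the left of 0 in marrow.

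Of the 4 kinases the inhibitors bind, Cdk1 and Cdk2 fell in marrow, by 0.88 and 0.64 on the log2 scale, and Cdk1 rose in kidney by 1.05 ± 0.27. Of 8 cyclins tested in marrow, 2 rose and 4 fell. The risers were the D-type cyclin genes Ccnd2, at 2.01 ± 0.15, and Ccnd1, at 1.47 ± 0.15, and 3 of 7 cyclins rose in kidney. Rb1 and Rbl1, of 3 retinoblastoma genes, fell in marrow, by 0.73 and 0.79 on the log2 scale, and none of the 3 was called in kidney. Of 16 senescence-associated genes tested in marrow, 6 rose and 1 fell, and in kidney 2 of 10 rose and 1 fell. Of 5 tested markers of injured tubule, 2 rose in treated kidney and none fell, Lcn2 by 2.06 ± 0.29 and Spp1 by 0.93 ± 0.078 on the log2 scale, while Havcr1 had a log2 fold change of 0.11 (adjusted p = 0.834 in edgeR). Their sum went from between 280 and 327 CPM to between 510 and 647 CPM and was nearly all Spp1, at a mean of 294 and 559 CPM, and their part in the kidney rise of Cdkn1a was not tested.

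Genes with the profile most like each member were found by the root mean square difference of centred log2 CPM over the 20 libraries. Closest to Cdkn1a were Eda2r at 0.748, Phlda3 at 0.98 and Adamts4 at 0.995 log2 units. Cdkn1b was nearest to Dedd2, Cyb561a3 and Mocs1, all within 0.179, and Cdkn1c to Stard8, Pdgfc and Cd302, within 0.366. For Cdkn2a the nearest were Lipe, Negr1 and Mtarc1, at up to 0.719, and for Cdkn2b Mrps6, Susd4 and Npr3, at up to 0.421. Cdkn2c was nearest to Nemp1, Tifa and H4c8, within 0.193, and Cdkn2d to Vrk1, Neurl3 and Me2, within 0.245. The likeness is a description over libraries that share tissue and treatment.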

How the data were processed

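Both tables were deposited by the authors as raw read counts per gene and library, with no normalization. Per the labels and methods, the authors' reads came from libraries described in 2 ways, as SMARTer cDNA or as ribosome-depleted RNA primed with random hexamers. Alignment is likewise given as STAR to Ensembl release 101 with counting in Partek Flow, or, in the submitters' processing notes, as STAR, Subread featureCounts and Salmon. The 55774 lines of each table held 287 exact repeats and 1 line lacking a value, and 55486 genes were used. No per-sample column was left unused.

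Genes were filtered with filterByExpr (minimum count 10), scaled by TMM and tested with edgeR 4.0.16 in R 4.3.3 by the robust quasi-likelihood test, two-sided, with Benjamini-Hochberg adjustment over all tested genes of the comparison. Marrow and kidney were fitted apart, with 5 libraries per group and treatment as the only term, and the interaction and the vehicle baseline used all 20. A call needed an adjusted p under 0.05 and a change beyond 1.5-fold, and for the interaction the adjusted p alone. P-values weigh the difference between groups against the spread between these libraries. Intervals are 95%, and floors of 3 counts, 0.09 to 0.13 CPM in kidney, cover counting error only. Positions, exon lengths and neighbours within 20000 bases came from the GENCODE M21 annotation of GRCm38. Within each list, up to 4 genes were named, those with the largest change among called genes of mean log2 CPM of at least 1, or the most abundant where fewer than 2 were called. The members, lists and tests were chosen with earlier results of these data known, and the p53 motif was added after the promoter sequences were seen.

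Correlations of the deviations of same-numbered libraries ran from −0.154 to 0.228 between treatments and from −0.0522 to 0.156 between tissues. The labels do not say whether a number marks the same mouse in both tissues, and weak correlations cannot decide it. Libraries were treated as unpaired, also in the comparisons between tissues. The least different pair of libraries in a group differed by 7.51 times the counting noise (chi-square per degree of freedom), so none was counted as a repeat. The alternatives were DESeq2 1.42.0, DESeq2 size factors, library size alone, other count filters, hemoglobin genes left out, a covariate of Y-linked genes, a replicate block, other fold rules and single libraries left out. Each fit was tested on simulated counts. For the interaction the first such test recovered fewer changed genes than had been asked, since some were near 0 in kidney, where the change was placed; the choice of genes and the criteria of the test were then revised, and the fits were not. The interaction test thus misses changes more often in genes that are low in 1 tissue. Figures were drawn with matplotlib 3.10.9.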

Additional observations from a re-analysis of the deposited data

Results flagged for a closer look

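In 3 of 28 groups of 5 libraries, 1 library lay apart from the other 4 by Dixon's test at the 95% level, which chance gives in about 1 in 20 groups. All 3 were in treated marrow. Cdkn1a was low in replicate 5, at 79.2 CPM against 146 to 154 CPM in the others, the library with the low level of Y-linked genes (99.1 CPM summed over 4 genes, against 133 to 165 CPM). Cdkn2a was high in replicate 3, at 2.84 CPM against 1.1 to 1.6 CPM, and Cdkn2d was low in replicate 4, at 56.2 CPM against 78.7 to 86.6 CPM. Without any 1 library the number of members called stayed at 6 in marrow and at 1 in kidney.

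The change after oxaliplatin differed between kidney and marrow for 6 members by edgeR's interaction test. On the log2 scale, kidney minus marrow, it was 0.98 for Cdkn1b, −1.85 for Cdkn1c, −3.77 for Cdkn2a, −3.15 for Cdkn2b, 1.21 for Cdkn2c and 0.65 for Cdkn2d. Tissue and extraction method cannot be told apart in these differences.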

How the results depend on the processing

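Across the alternatives 794 values stayed the same. For a fold change that meant the same direction and side of the threshold. For a number of calls it meant staying within 1.5-fold of the main fit. Of the rest, 6 numbers of calls moved further, 4 fold changes reversed in sign, 12 gained a call and 4 lost it. Calls in marrow went from 5221 to 2730 when tested against 1.5-fold and to 3231 beyond 2-fold, and in kidney from 2216 to 454 and 941, or to 5679 with no fold rule. With no fold rule Cdkn2d (−0.41, adjusted p = 0.0181 in edgeR) was called in marrow, and Cdkn1b (−0.91) was not called beyond 2-fold or when tested against 1.5-fold (adjusted p = 0.0669). The members called in marrow ranged from 4, with 10 counts required in every library, to 7. That filter left Cdkn2a and Cdkn2b untested, since some vehicle marrow libraries had fewer counts of them. The interaction of Cdkn1a passed with library size alone (0.87, adjusted p = 0.0398), 10 counts in every library (0.93, 0.0191) and DESeq2 (0.81, 0.036). It ranged from 0.63 to 1.04 with 1 library left out, passing without kidney vehicle 5, kidney oxaliplatin 3 or kidney oxaliplatin 4. A covariate of Y-linked genes moved the vehicle difference of Cdkn1a to −0.61 (adjusted p = 0.0891) and of Cdkn2a to 1.47 (0.0444). With 1 library left out these ranged from −0.91 to −0.53, below 1.5-fold and so not called without kidney vehicle 2, and from 0.86 to 1.42, called without kidney vehicle 1 or 3 or marrow vehicle 1 or 2. Calls between vehicle tissues fell from 17733 to 10089 with 10 counts in every library, a filter that tests fewer genes. Near-zero kidney values changed sign: Cdkn2b with library size alone (0.0295), and, with 1 library left out, Cdkn1c (−0.0263 to 0.143, negative without oxaliplatin 2) and Cdkn2c (−0.0344 to 0.0847, negative without oxaliplatin 2 or 3). Library size alone also moved the median log2 fold change of all genes from −0.04 to 0.11 in marrow and from 0.02 to 0.16 in kidney, and the share of calls that were higher from 49.6% to 63.4% and from 66.8% to 82.7%. A replicate block gave 4968 calls in marrow and 2017 in kidney and changed no member's call. Causes not named here were not tested. Depth limits Cdkn2a in kidney and vehicle marrow, and Cdkn2b in vehicle marrow.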
